A study of Mus musculus with 6 samples.

Results

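The genes for the proteins of the cytoplasmic ribosome were compared between Klf15 knockout and control mouse livers. They were taken by symbol: every gene whose name starts with Rpl or Rps and a digit, with Rpsa, Rplp0, Rplp1 and Rplp2, and without the pseudogenes marked -ps and the Rps6k kinases. This gave 92 of the 48432 genes in the deposited table. By name, 54 belong to the large subunit and 37 to the small subunit, and 1, Rps19bp1, encodes a binding protein of Rps19 and is no subunit. Of the 92 genes, 86 are annotated as protein coding and 6 (Rps3a2, Rps3a3, Rps4l, Rps12l1, Rpl6l and Rpl37rt) as processed pseudogenes. Counts were high enough for testing in 79 of them: 45 of the large subunit, 33 of the small subunit and Rps19bp1.

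The Li-KO group consists of 3 liver libraries from mice with a liver-specific knockout of Klf15, a zinc finger transcription factor of the Kruppel-like family. The Ctl group consists of 3 liver libraries from mice that carry Albumin-Cre, a transgene that expresses Cre recombinase from the albumin promoter and therefore in hepatocytes. All mice were 10 weeks old. The labels name neither the floxed allele nor the exon removed, and do not say whether the Li-KO mice carry Albumin-Cre as well. A hepatocyte promoter leaves Klf15 intact in the other cells of the liver. Total RNA was sequenced with a stranded kit, so unspliced and nuclear RNA is in the libraries. Whether each library is its own mouse is not stated in the labels, and the p-values therefore speak only of the spread among these 6 libraries, which may be technical.

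A ribosome joins a small subunit, which holds the mRNA and reads its codons, to a large subunit, which joins the amino acids. Each ribosomal protein is needed in about equal numbers, and in mammals most are encoded by a single gene with introns plus many processed copies scattered over the genome. Their mRNAs begin with a C followed by a run of pyrimidines, the terminal oligopyrimidine or TOP motif, through which mTORC1 and Larp1 control their translation. Liver makes large amounts of secreted protein, and the ribosomal protein mRNAs are among its abundant short transcripts.

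The bases around the annotated starts show where this element is present and where it is not among members that were called higher in Li-KO livers. Each window below has 15 bases before and 15 bases from the RefSeq start on GRCm38.p6, read 5′ to 3′ on the gene's strand. Capitals mark a C within 5 bases of the start and the C and T run that follows it, at least 5 long. The first group holds the 5 members that kept their call whichever library was left out.
Rpl22l1, chr3:28805493-28805522, plus strand: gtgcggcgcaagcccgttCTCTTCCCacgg
Rps21, chr2:180257364-180257393, plus strand: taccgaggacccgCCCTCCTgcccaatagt
Rps7, chr12:28635939-28635968, minus strand: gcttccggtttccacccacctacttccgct
Rpl26, chr11:68901551-68901580, plus strand: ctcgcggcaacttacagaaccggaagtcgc
Rpl13, chr8:123102335-123102364, plus strand: ttccctttcgcctgattttgattggcgttt
The run stands at the start of Rpl22l1 and at the start of Rps21 shown here. Another annotated start of Rps21, not shown, has no run by this definition. No such run stands at the annotated start of Rps7, Rpl26 or Rpl13. The second group shows longer runs in 3 more members that were higher in Li-KO livers.
Rps10, chr17:27635230-27635259, minus strand: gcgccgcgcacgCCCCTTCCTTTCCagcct
Rps18, chr17:33955651-33955680, minus strand: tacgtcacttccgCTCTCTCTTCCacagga
Rpl13a, chr7:45128731-45128760, minus strand: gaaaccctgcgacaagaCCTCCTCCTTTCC

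Promoter windows of 250 bases before to 50 bases after the start were given for 67 of the 92 members, 79 windows in all because some genes have several starts. A start-site pyrimidine run was found in 35.4% of these windows, against 10.2% of all promoter windows. The ETS-type motif CCGGAAG, searched on both strands, stood in 34.2% of member windows and in 8.9% of all windows. The pyrimidine motif CTCTTTC, searched on the gene's strand, stood in 19.0% and in 4.0%. TATAA between 40 and 21 bases before the start stood in 4 member windows (5.1%), against 3.3% of all windows. Of the 2 motifs of Kruppel-like type, searched on both strands, CCCCGCCC was in 29.1% of member windows against 17.6% of all windows, and CCACCC in 25.3% against 31.5%. Of the 20 called members with a window, 7 had the run, 7 had CCGGAAG, 5 had CCCCGCCC and 5 had CCACCC. Among the 38 members that were tested and not called, 18 had the run, 16 had CCGGAAG, 15 had CCCCGCCC and 13 had CCACCC. These are matches of letters and were not tested as binding sites.

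Fragments assigned to genes came to 30132499, 31225416 and 42782318 in the Li-KO libraries and to 42433775, 35454662 and 38502121 in the Ctl libraries. Klf15 itself had 54.3, 41.6 and 51.8 CPM (counts relative to the TMM-scaled library total) in Li-KO livers, against 345, 174 and 196 CPM in Ctl livers. Every Li-KO library lay below every Ctl library, with a log2 fold change of -2.28 ± 0.26 (SE, edgeR quasi-likelihood test, adjusted p = 0.00275). Of 12 hepatocyte markers 6 were measured and 5, albumin among them, were skipped by the authors' software, and the 6 summed to between 22280 and 25650 CPM in Li-KO and between 19410 and 27790 CPM in Ctl libraries. None of the marker genes of Kupffer cells, endothelium, stellate cells, cholangiocytes, lymphocytes, neutrophils or erythroid cells was at 0 in all libraries. None was called higher and 1 cholangiocyte marker was called lower. Of the lymphocyte markers, a cell type rich in ribosomal protein mRNA, 0 of 9 tested genes were called, and the 13 listed summed to 24.7 to 52.3 CPM in Li-KO and 29.3 to 37.3 CPM in Ctl libraries. Of these 9 genes 7 had log2 fold changes above 0, with a median of 0.66. For cholangiocyte markers the median was 0.79, with 5 of 6 above 0. The medians were -0.07 for Kupffer cells, -0.08 for endothelium, 0.1 for stellate cells, -0.52 for neutrophils and -0.72 for erythroid cells. The 7 erythroid markers, of which 0 were called, summed to 296 to 593 CPM in Li-KO and 743 to 814 CPM in Ctl libraries, and these ranges did not overlap. The 4 nuclear-retained RNAs measured, 1 of which was called lower, summed to 4507 to 10920 CPM in Li-KO and 3191 to 6415 CPM in Ctl libraries. Of 13 mitochondrially encoded genes 9 were at 0 in all libraries. The part of these RNAs in the results below was not tested. In whole liver, more cells of a type and more RNA per cell cannot be told apart.

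Ribosomal protein genes were higher in Klf15 knockout livers, in both subunits and by a modest amount. Of the 79 tested members, 28 (35.4%) rose and 0 fell at an adjusted p under 0.05, where 6.11% of all 16533 genes tested rose and 5.9% fell. Their median log2 fold change, Li-KO over Ctl, was 0.47, beside -0.01 over all genes tested, and 67 of the 79 values were above 0. The 3 Li-KO libraries lay above the 3 Ctl libraries without overlap in 51 members, where 17.4% of all genes did so. They lay below in 1 member, Rpl5, where 17.8% of all genes did so. The members summed to 5388, 5215 and 5587 CPM in Li-KO livers, against 4143, 3757 and 4222 CPM in Ctl livers, a ratio of the means of 1.34. With each library's counts rescaled by factors computed without the members, this ratio was 1.34 as well.

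The number of calls rested on single libraries. It was 5 without library 1 of Li-KO, 5 without library 1 of Ctl and 7 without library 2 of Ctl, and between 17 and 23 without each of the other 3. The calls over all genes fell with it, to 226, 198 and 255 genes higher in those 3 fits. Among the 79 members, Ctl library 1 held the lowest Ctl value in 38 and Ctl library 0 the highest in 39. Rpl13, Rpl22l1, Rpl26, Rps7 and Rps21 were called whichever of the 6 libraries was left out, and each of the other 23 called members lost its call in at least 1 of these fits.

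**Figure D1:**
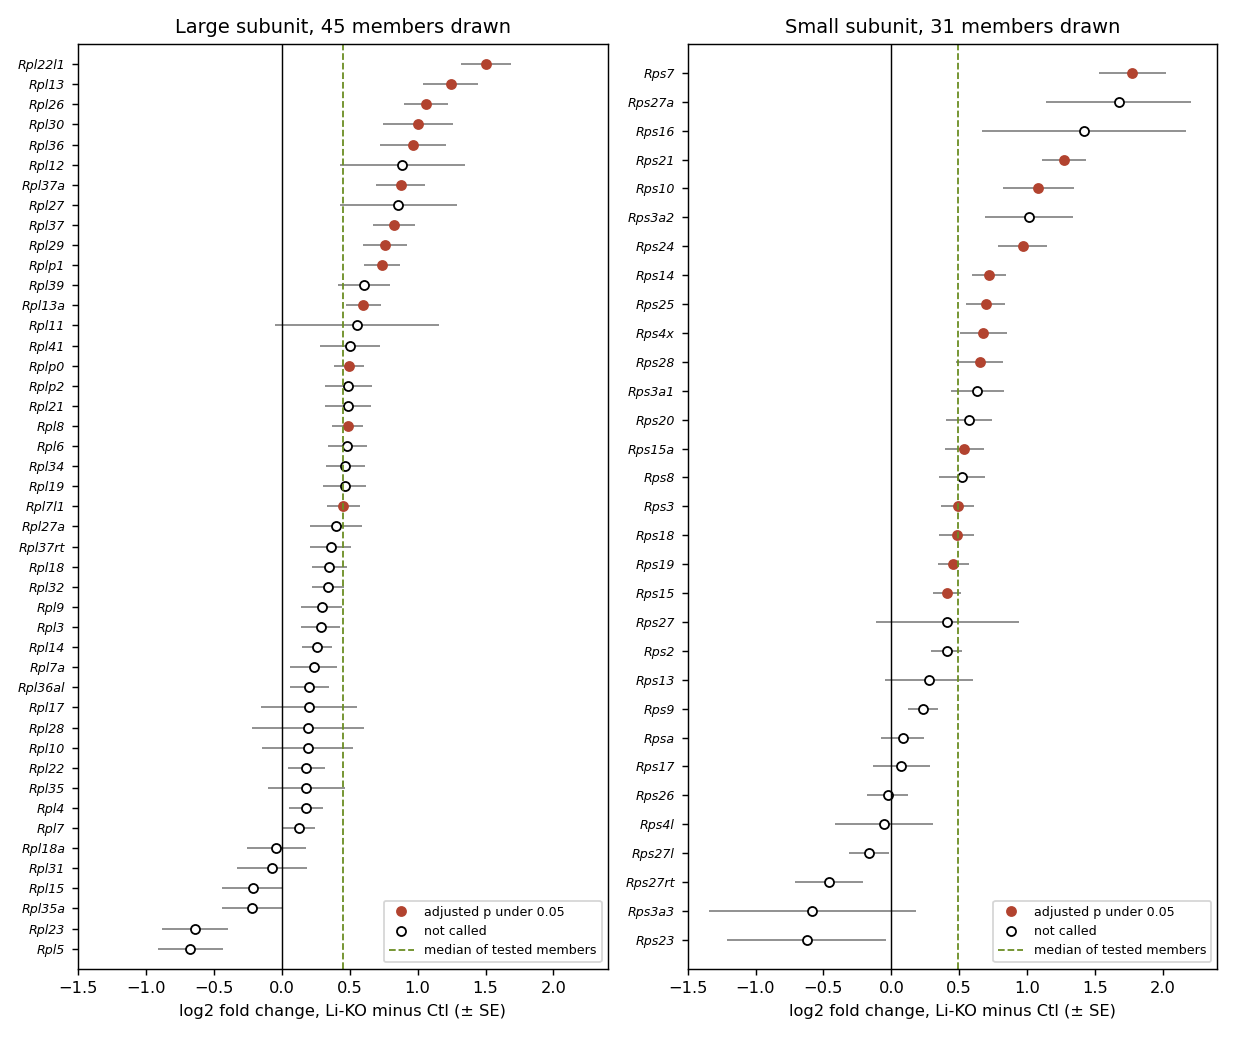
Log2 fold change (Li-KO minus Ctl, horizontal axis, bars ± SE of the edgeR fit, 3 libraries per group) of large and small subunit genes tested, ordered by size, with 45 large and 31 small subunit genes drawn. Filled points passed an adjusted p of 0.05, all of them right of 0, and the dashed lines mark the medians over all tested genes, 0.45 for the large and 0.49 for the small subunit.

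The medians of the subunits were close. In the large subunit 13 of 45 tested genes (28.9%) rose, with a median log2 fold change of 0.45. In the small subunit 15 of 33 (45.5%) rose, with a median of 0.49. Large subunit genes summed to 3254, 3119 and 3290 CPM in Li-KO livers and to 2466, 2261 and 2609 CPM in Ctl livers. The small subunit sums were 2120, 2080 and 2284 CPM in Li-KO and 1666, 1483 and 1601 CPM in Ctl livers. In neither subunit did the sums of the groups overlap. The large sum divided by the small sum was 1.54, 1.5 and 1.44 in Li-KO libraries and 1.48, 1.53 and 1.63 in Ctl libraries, and these ranges overlapped. The difference between the subunits' shares of called genes was not tested.

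Among large subunit genes, Rpl22l1, which encodes a paralogue of Rpl22, had the smallest p-value. It had 16.9, 18.95 and 24.9 CPM in Li-KO livers, against 7.91, 6.54 and 6.98 CPM in Ctl livers. All Li-KO libraries lay far above the Ctl libraries, and the log2 fold change was 1.502 ± 0.186 (SE, adjusted p = 0.00381, edgeR). Rpl13, another large subunit protein, had 23.1, 25.2 and 25.6 CPM in Li-KO livers, against 13.8, 8.80 and 8.52 CPM in Ctl livers. Its log2 fold change was 1.25 ± 0.20 (adjusted p = 0.0100, edgeR), with Ctl library 0 standing between the other Ctl libraries and the Li-KO libraries. Rpl26, a protein near the exit of the peptide tunnel that in human cells also binds p53 mRNA, had 62.3, 54.9 and 57.3 CPM in Li-KO livers, against 33.9, 27.0 and 22.7 CPM in Ctl livers. The groups did not overlap, and the log2 fold change was 1.06 ± 0.16 (adjusted p = 0.00803, edgeR).

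The stalk of the large subunit, which recruits elongation factors, is built from Rplp0, Rplp1 and Rplp2. Rplp1 had 329.8, 287.5 and 268 CPM in Li-KO livers, against 198.5, 169 and 164 CPM in Ctl livers, and a log2 fold change of 0.74 ± 0.14 (adjusted p = 0.0147, edgeR). Rplp0 had 304, 283 and 291 CPM in Li-KO and 214, 193 and 216 CPM in Ctl livers, a log2 fold change of 0.49 ± 0.11 (adjusted p = 0.0298). Rplp2 did not pass, at 39.5, 39.3 and 39.96 CPM in Li-KO and 36.0, 23.95 and 24.6 CPM in Ctl livers (adjusted p = 0.0967), with Ctl library 0 close to the Li-KO values. Rpl8, at the peptidyl transferase centre, had 342, 339 and 367 CPM in Li-KO and 248, 236 and 265.1 CPM in Ctl livers (log2 fold change 0.49 ± 0.12, adjusted p = 0.0329). The zinc-binding proteins Rpl37 and Rpl37a were called as well, with log2 fold changes of 0.83 (adjusted p = 0.0151) and 0.87 (adjusted p = 0.0203). The other large subunit genes called higher were Rpl13a, Rpl29, Rpl30, Rpl36 and Rpl7l1, with log2 fold changes of 0.60, 0.76, 1.0, 0.97 and 0.45 and adjusted p between 0.0223 and 0.0466.

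In the small subunit the change was largest in Rps7, one of the genes mutated in the human disease Diamond-Blackfan anaemia. It had only 8.44, 8.0 and 6.37 CPM in Li-KO livers, against 2.76, 2.15 and 1.75 CPM in Ctl livers. This was a log2 fold change of 1.77 ± 0.25 (SE, adjusted p = 0.00603, edgeR) at a low level, a mean of 6.94 FPKM in Li-KO and 2.03 FPKM in Ctl livers. Rps21, among the smallest proteins of this subunit, had 53.3, 49.6 and 50.7 CPM in Li-KO livers, against 25.6, 16.7 and 21.4 CPM in Ctl livers. The Li-KO libraries lay close together and far above all Ctl libraries, with a log2 fold change of 1.27 ± 0.16 (adjusted p = 0.00446, edgeR).

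Rps14, a platform protein whose loss contributes to the human 5q deletion syndrome, had 134, 132 and 134 CPM in Li-KO and 93.8, 77.3 and 72.3 CPM in Ctl livers (log2 fold change 0.72 ± 0.13, adjusted p = 0.0130, edgeR). Rps24 and Rps10, both also mutated in Diamond-Blackfan anaemia, rose with log2 fold changes of 0.97 (adjusted p = 0.0159) and 1.08 (adjusted p = 0.0340). Rps19, the gene first linked to that disease, had 53.2, 56.1 and 61.1 CPM in Li-KO and 40.5, 40.1 and 43.8 CPM in Ctl livers (log2 fold change 0.46 ± 0.11, adjusted p = 0.0374). Rps3, at the mRNA entry channel, had 298, 282.5 and 317 CPM in Li-KO and 225, 193 and 222 CPM in Ctl livers (log2 fold change 0.49 ± 0.12, adjusted p = 0.0366). Small subunit genes called higher also included Rps25, Rps4x, Rps28, Rps15a, Rps18 and Rps15, with log2 fold changes of 0.70, 0.68, 0.65, 0.54, 0.48 and 0.41 and adjusted p between 0.0213 and 0.0441. In all 28 called members every Li-KO library was above every Ctl library.

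**Figure D2:**
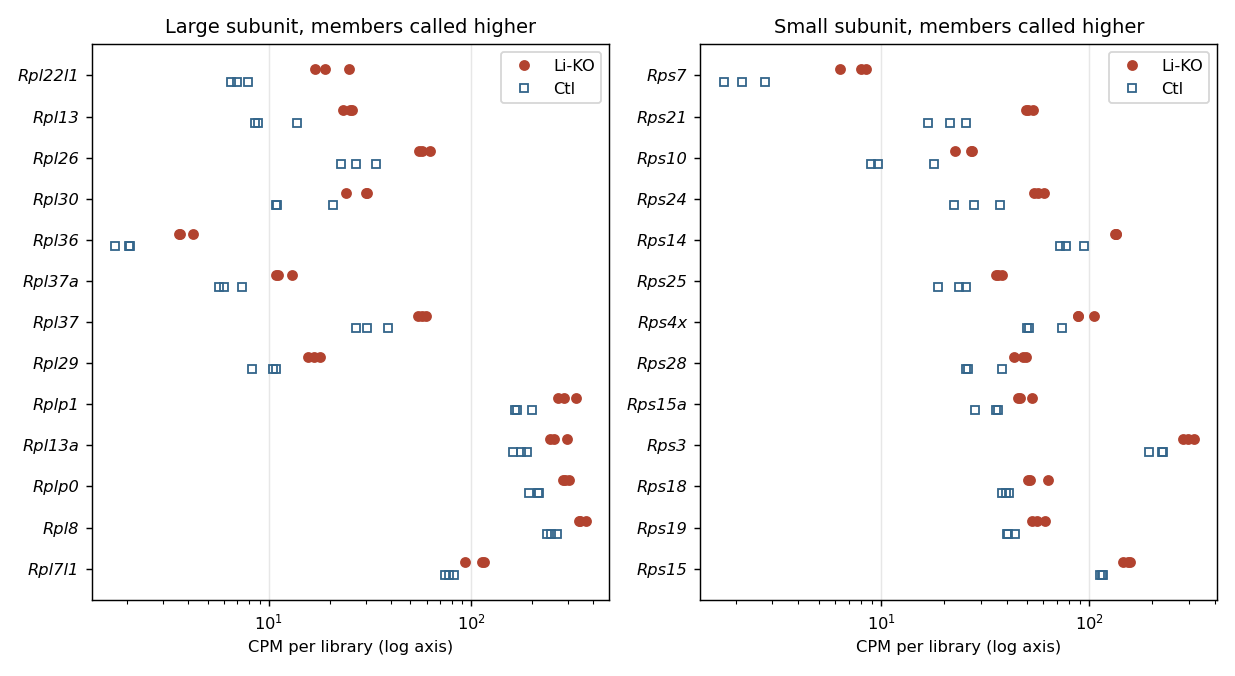
Level in each library (CPM, log axis) of 13 large and 13 small subunit genes called higher in Li-KO livers, ordered by fold change. Filled circles are the 3 Li-KO libraries and open squares the 3 Ctl libraries, and in each row the circles lie to the right of the squares.

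Per length, the highest mean levels over the 6 libraries among large subunit genes were those of Rplp1 (562 FPKM), Rpl37rt (363 FPKM), Rpl8 (311 FPKM) and Rpl4 (289 FPKM). In the small subunit Rps9 (307 FPKM), Rps15 (297 FPKM) and Rps3 (259 FPKM) were among the highest. Abundant members were not all called: Rpl4, which lines the peptide tunnel, had 547, 522 and 554 CPM in Li-KO and 461, 454 and 521.5 CPM in Ctl livers (log2 fold change 0.18 ± 0.12, adjusted p = 0.384, edgeR). Rps9, a small subunit protein on the mRNA entry side, had 171, 174 and 191.5 CPM in Li-KO and 154, 143 and 158 CPM in Ctl livers (log2 fold change 0.24 ± 0.11, adjusted p = 0.198). At the other end, the 2 lowest tested members of the small subunit were Rps16 (0.427 FPKM) and Rps3a3 (0.497 FPKM), and those of the large subunit Rpl12 (0.610 FPKM) and Rpl11 (0.679 FPKM). In this order their log2 fold changes of 1.42, -0.58, 0.89 and 0.55 came with standard errors of 0.75, 0.76, 0.46 and 0.60, and none was called. Rps27a, a fusion of ubiquitin and a small subunit protein, had 1.93, 0.899 and 0.705 CPM in Li-KO and 0.479, 0.350 and 0.265 CPM in Ctl livers. Its log2 fold change of 1.67 ± 0.53 was among the largest and did not pass (adjusted p = 0.0764).

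The 51 tested members that were not called ranged in log2 fold change between -0.67 (Rpl5) and 1.67 (Rps27a). Only 12 members of the 79 had values below 0. Rpl5, which binds the smallest ribosomal RNA and, when free, the p53 regulator Mdm2, had 4.87, 7.26 and 9.36 CPM in Li-KO livers, against 12.1, 11.95 and 10.2 CPM in Ctl livers. All Li-KO libraries lay below all Ctl libraries, with a log2 fold change of -0.67 ± 0.24 (adjusted p = 0.105, edgeR). Without Li-KO library 2 it was called lower. Rpl23, another large subunit protein that binds Mdm2, had 31.8, 30.03 and 40.1 CPM in Li-KO and 39.1, 45.0 and 74.8 CPM in Ctl livers, and the groups overlapped (log2 fold change -0.64 ± 0.24, adjusted p = 0.121). Rpl11, which forms a complex with Rpl5, was low, with 0.741, 0.803 and 0.778 CPM in Li-KO and 0.719, 0.727 and 0.133 CPM in Ctl livers. Its groups did not overlap but nearly touched. The log2 fold change of 0.55 ± 0.60 rests on few counts and was not called (adjusted p = 0.588, edgeR).

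The remaining 13 members had too few counts to be tested. Rpl10l and Rps12l1 had 0 counts in every library. Rpl3l and Rpl39l, paralogues known from striated muscle and male germ cells, and Rpl6l had at most 5 counts in any library. The other 8 are standard subunits that every cell uses: Rpl10a, Rpl23a, Rpl24, Rpl36a, Rpl38, Rps6, Rps12 and Rps29, with between 0 and 27 counts per library. Rps6, the substrate of the S6 kinases, had 3, 10 and 5 counts in Li-KO libraries and 4, 3 and 4 counts in Ctl libraries. Rpl38, which in mice is needed for the translation of Hox mRNAs, had 9, 6 and 6 counts in Li-KO and 5, 11 and 9 counts in Ctl libraries. For Rpl10a, Rpl23a, Rpl36a, Rpl38 and Rps6 the -ps copies of the same gene held more counts than the gene itself.

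Counts were also assigned to processed copies, and whether these reads came from the copies or from their parent genes was not tested. The table holds 263 -ps pseudogenes, which summed to 657, 641 and 711 CPM in Li-KO livers, against 497, 431 and 498 CPM in Ctl livers. Of these, 37 were tested, 13 rose (35.1%) and 0 fell, where 6.11% of all genes tested rose and 5.9% fell. The median log2 fold change of the 37 was 0.64. The 2 copies of Rpl10a summed to 78.6, 77.6 and 73.5 CPM in Li-KO and 46.1, 44.4 and 47.0 CPM in Ctl livers, where Rpl10a itself averaged 0.382 CPM. The 9 copies of Rpl9 summed to 77.6, 63.3 and 85.9 CPM in Li-KO and 46.5, 30.4 and 41.3 CPM in Ctl livers, where Rpl9 averaged 8.55 CPM. The 4 copies of Rps6 summed to 35.5, 30.8 and 33.5 CPM in Li-KO and 32.8, 34.1 and 42.55 CPM in Ctl livers, where Rps6 averaged 0.137 CPM. The 1 copy of Rpl14 had 92.97, 93.26 and 118.7 CPM in Li-KO and 96.86, 104.1 and 123.7 CPM in Ctl livers, where Rpl14 averaged 67.72 CPM. For Rpl10a and Rpl9 the copies were higher in every Li-KO library than in any Ctl library, and for Rps6 and Rpl14 they were not.

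Sequence shared with other genes was counted for each member. The 50-base words were those of 1 transcript per gene, the one of median length, from the coding transcripts where there were any. In the members a median of 39.15% of them occurred in no other gene, beside 97.85% for the 78 mitochondrial ribosomal protein genes. In 58 of the 92 members less than 50% of the words were unique, and 88 shared words with at least 1 other gene. The 20 members under 20% unique had a median level of 3.11 FPKM, and the 21 members between 50% and 80% had 62.8 FPKM. Over the 92 members the Spearman correlation of the unique share with level was 0.35, a description in which all values come from the same 6 libraries. With the log2 fold change of the 79 tested members it was -0.04. Among the 30 tested members with at least 50% unique words 11 rose and 0 fell, and their median log2 fold change was 0.47, the same as over all tested members. Single members with few unique words, such as Rpl13 (19.7%), Rpl26 (28.7%), Rps7 (29.7%) and Rpl22l1 (38.4%), are uncertain as to which copy was counted. Rps21 (73.6%), Rps14 (61.9%), Rpl37 (68.7%), Rpl8 (92.1%) and Rps3 (95.5%) are mostly distinct and were among the 11 that rose. Other mostly distinct members were not called, such as Rpl22 (94.8%, log2 fold change 0.18), Rpl4 (83.5%, 0.18), Rps27l (77.6%, -0.17) and Rpl23 (66.3%, -0.64).

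**Figure D3:**
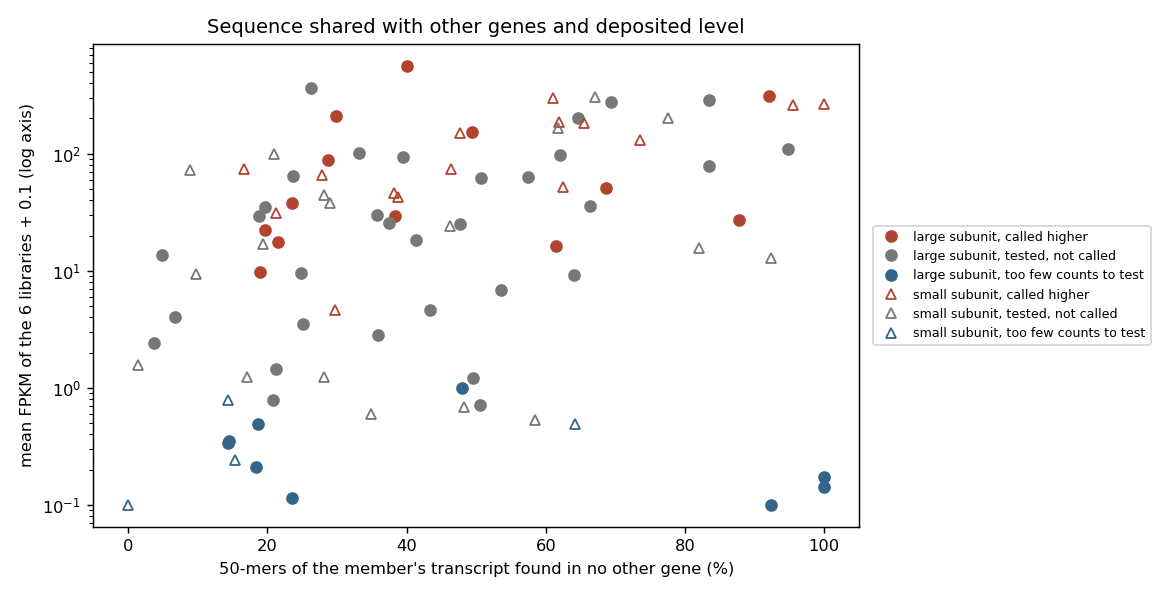
Share of each member's 50-base words found in no other gene (horizontal axis, %) against its mean level over the 6 libraries (FPKM + 0.1, log axis), with circles for large and triangles for small subunit genes. Red marks genes called higher in Li-KO livers, grey those tested and not called and blue those with too few counts. Blue points lie at the bottom, and red points are spread over most of the horizontal axis.

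Ribosomal protein mRNAs are short, and short genes as a whole sat higher in Li-KO livers. Members with transcripts of up to 600 bases had a median log2 fold change of 0.50 and those above 600 and up to 1000 bases a median of 0.43. Among other coding genes the median was 0.10 up to 600 bases and -0.13 above 4000 bases. Of the 68 tested members of up to 1000 bases 27 rose (39.7%), where 366 of 3726 other coding genes of that length did (9.82%). With each library's trend on length and GC content taken out, an alternative chosen after seeing the data, 13 members rose and 0 fell, where 5.17% of all genes rose and 5.49% fell. The medians became 0.27 for the large and 0.30 for the small subunit. Of the 28 called members 12 stayed called: Rpl13, Rpl22l1, Rpl26, Rpl37, Rpl37a, Rplp1, Rps3, Rps7, Rps14, Rps21, Rps24 and Rps25.

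**Figure D4:**
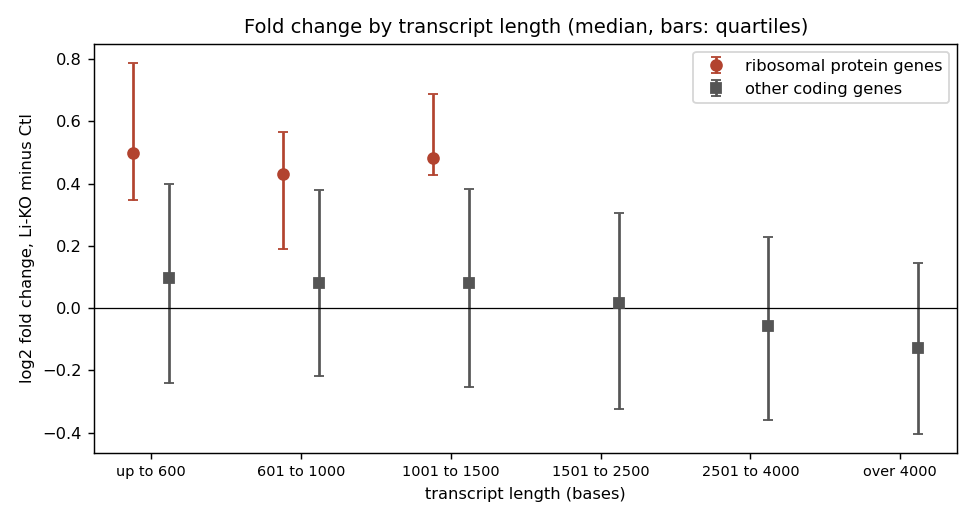
Median log2 fold change (Li-KO minus Ctl, bars from the lower to the upper quartile) of ribosomal protein genes and of other coding genes in bins of transcript length (bases). The members' medians in the 3 shortest bins lie between 0.43 and 0.50, and those of other coding genes run from 0.10 in the shortest bin to -0.13 in the longest.

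Paralogues were compared with their parent genes by the log2 ratio of their counts within each library, which needs no scaling between libraries. With 3 libraries against 3 the two-sided exact permutation test cannot go below p = 0.1, and 7 pairs had enough counts. Rpl22l1 to Rpl22 moved most. The log2 ratio was -2.26, -2.12 and -1.91 in Li-KO libraries, against -3.30, -3.27 and -3.61 in Ctl libraries, a difference of 1.30 (exact p = 0.1, adjusted over the 7 pairs 0.175). Without any one library the difference stayed between 1.19 and 1.38. Rpl22, whose protein in mice represses the Rpl22l1 mRNA, had 80.6, 82.5 and 93.6 CPM in Li-KO and 77.8, 63.3 and 85.1 CPM in Ctl livers and was not called (log2 fold change 0.18 ± 0.14, adjusted p = 0.421, edgeR). The paralogue rose, and its parent's groups overlapped in CPM. In FPKM the groups of Rpl22 did not overlap, with 121.8, 111.6 and 127.7 in Li-KO and 101.0, 86.21 and 109.1 in Ctl livers. Taken from FPKM, the difference in the log2 ratio was 1.15. Of the 50-base words of Rpl22l1 38.4% were found in no other gene, against 94.8% for Rpl22, and which copies were counted was not tested.

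Rpl7l1, whose yeast counterpart acts in the assembly of the large subunit, had log2 ratios to Rpl7 of -0.57, -0.24 and -0.49 in Li-KO and -0.71, -0.77 and -0.80 in Ctl libraries. The groups did not overlap, with a difference of 0.33 (exact p = 0.1, adjusted 0.175). Rpl7 itself had a log2 fold change of 0.12 ± 0.12 and was not called (adjusted p = 0.541, edgeR). Rps27l, which in human cells is a p53 target, had 71.4, 88.7 and 98.9 CPM in Li-KO and 92.0, 90.6 and 108 CPM in Ctl livers, with overlapping groups. Rps27, its parent, held under 1 CPM in each library and has 1.4% unique words, so the log2 ratios of Rps27l and of the retrogene Rps27rt to it, 7.14 and 4.65 on average in Li-KO and 7.85 and 5.58 in Ctl libraries, rest on few counts. The differences were -0.71 (exact p = 0.3) and -0.93 (exact p = 0.2). Rps4l, a processed copy of the X-linked Rps4x, had a log2 ratio to it of -2.79 ± 0.66 in Li-KO and -1.90 ± 0.50 in Ctl libraries (SD, n = 3 each, exact p = 0.2). The retrogenes Rpl37rt and Rps3a2, paired after seeing the data, had differences from Rpl37 and Rps3a1 of -0.46 and 0.47 (exact p = 0.1 each). Their groups did not overlap but nearly touched. The nearest log2 ratios were 0.15 in Li-KO and 0.16 in Ctl libraries for Rpl37rt, and -2.36 and -2.38 for Rps3a2. Only 26.2% of the words of Rpl37rt and 9.8% of those of Rps3a2 were unique. No pair passed after adjustment. For Rpl3 and Rpl3l, Rpl10 and Rpl10l, Rpl36a and Rpl36al, and Rpl39 and Rpl39l, 1 partner averaged under 10 counts and no ratio was taken.

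**Figure D5:**
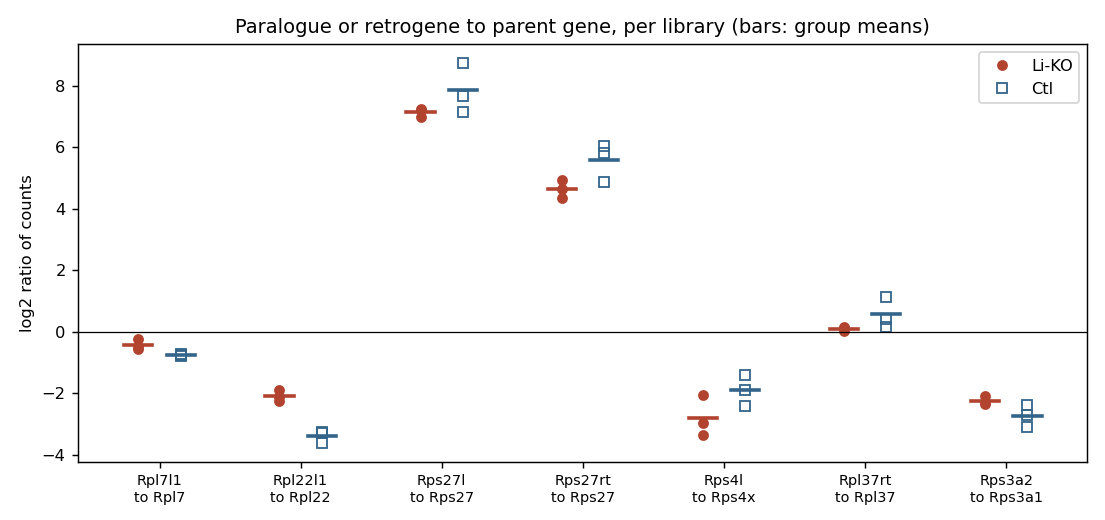
Log2 ratio of paralogue or retrogene counts to parent counts in each library, with filled circles for Li-KO, open squares for Ctl and bars for group means. Rpl22l1 to Rpl22 is higher in all 3 Li-KO libraries, and the ratios to Rps27, which has few counts, spread widely.

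Other parts of the translation machinery were read in the same fit. Rack1, a scaffold on the small subunit's head, had 400.4, 406 and 411 CPM in Li-KO and 292, 249 and 255.9 CPM in Ctl livers (log2 fold change 0.61 ± 0.12, adjusted p = 0.0182, edgeR). Fau, a fusion of a ubiquitin-like protein and a small subunit protein, held 0.96 to 1.73 CPM in all libraries and was not called (adjusted p = 0.576). Of 21 other TOP mRNAs 1 rose (4.76%) and 1 fell, which is near the 6.11% and 5.9% of all genes tested, and the median log2 fold change was 0.19. In 12 of the 21 it was above 0. The Li-KO libraries lay above the Ctl libraries without overlap in 9 of the 21 and below them in 1, where 17.4% and 17.8% of all genes did so. Pabpc1, the poly(A)-binding protein, fell, with 144, 127 and 160.4 CPM in Li-KO and 236.5, 261 and 271 CPM in Ctl livers (log2 fold change -0.83 ± 0.13, adjusted p = 0.00867). Eif3l, an initiation factor subunit, rose (0.46, adjusted p = 0.0368).

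Of 38 initiation factors 5 rose (13.2%, where 6.11% of all genes tested rose), a difference that was not tested, with Eif3i, Eif2b1 and Eif4e2 at 0.46, 0.46 and 0.44 on the log2 scale, and 1, Eif5b, fell by 0.61. Of 13 elongation and termination factors Dhps and Dohh, the enzymes that make hypusine on Eif5a, rose (0.75 and 0.55) and the termination factor Gspt1 fell (-0.48). Of 81 ribosome biogenesis genes 5 rose (6.17%), a share near that of all genes tested, and 0 fell, with a median of 0.19 on the log2 scale. In 59 of the 81 the log2 fold change was above 0. The Li-KO libraries lay above the Ctl libraries without overlap in 21 and below them in 5, where 17.4% and 17.8% of all genes did so. Nop10 and Nhp2, partners in the H/ACA RNA-guided modification of ribosomal RNA, were 2 of the 5 called higher (0.61, adjusted p = 0.0130, and 0.68, adjusted p = 0.0292, edgeR), and Ddx56 and Emg1 had 0.58 and 0.46. RNA polymerase I transcribes the large ribosomal RNA precursor. Of its 12 tested genes 2 rose (16.7%), Polr1d (0.75) and Polr1c (0.86), which are shared with RNA polymerase III. In the mTORC1 list 0 of 19 genes rose and 3 fell, where 6.11% of all genes tested rose and 5.9% fell. The 3 were the translation inhibitor Pdcd4 (-1.04, adjusted p = 0.00502), the mTOR inhibitor Deptor (-0.68, adjusted p = 0.0181) and Larp1 (-0.53, adjusted p = 0.0276). Of 10 factors reported at ribosomal protein promoters 3 fell, Sp1, Yy1 and Sp3 (-0.65, -0.69 and -0.59), and 0 rose. Of 7 other kinase genes of the Rps6k family Rps6ka3 fell (-0.88, adjusted p = 0.0331). These lists are small, and their counts of calls were not tested against the shares of all genes.

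Free ribosomal proteins can stabilise p53. Among 20 p53 targets 1 rose (5.0%) and 3 fell, where 6.11% of all genes tested rose and 5.9% fell. These counts were not tested against those shares. The antiproliferative gene Btg2 had 7.32, 5.46 and 9.19 CPM in Li-KO and 42.0, 29.3 and 42.1 CPM in Ctl livers (log2 fold change -2.37 ± 0.23, adjusted p = 0.00119, edgeR). Zmat3 and Ccng1 fell as well (-0.67 and -0.66), and Plk2 rose (0.66). Of 9 tested hosts of small nucleolar RNAs outside the family 1 rose (11.1%), Snhg6 (1.04, adjusted p = 0.0213, edgeR). The proteins of the mitochondrial ribosome, which are encoded by separate nuclear genes, rose in 19 of 76 tested genes and fell in 0. Of all genes tested 6.11% rose and 5.9% fell. The median log2 fold change of the 76 was 0.36, and 73 values were above 0. In 52 of the 76 the Li-KO libraries lay above the Ctl libraries without overlap, and in 1 below them. Over all genes these shares were 17.4% and 17.8%. With length and GC trends taken out 19 of the 76 rose, where 5.17% of all genes and 13 of the 79 members did. The median of the 76 was then 0.28. A rise was thus not limited to the cytoplasmic ribosome, and the difference between these families was not tested.

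Of the named genes outside the family, Klf15, Pabpc1, Pdcd4 and Btg2 were called whichever library was left out, and each of the others lost its call in at least 1 such fit. With the length and GC correction Eif3l, Eif3i, Eif4e2, Eif5b, Dhps, Dohh, Gspt1, Ddx56, Emg1, Rps6ka3, Yy1, Sp3 and Ccng1 did not pass.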

How the data were processed

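Per the submitters' processing notes, reads were processed with STAR, Cufflinks and Cuffdiff on mm10; their versions, the annotation, the strand setting and the treatment of reads with several matches were not given in the sources used here. Per gene and library, the deposited table gives, per the file headers, estimated counts (raw fragments, not normalized) and FPKM scaled by the authors' software; 0 columns of per-sample values had no sample. Its conditions KO and WT were matched to Li-KO and Ctl through the titles and replicate numbers. Counts were rounded, as 3.29% were not whole. Left out were 77 genes skipped in any library, none a member. Symbols came from a gene name table (48051 of 48432 IDs matched, without version), and types, positions and transcripts from GENCODE M21.

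Genes were filtered by filterByExpr (minimum count 10, minimum total 15), scaled by TMM and tested with the edgeR 4.0.16 quasi-likelihood test (R 4.3.3), Li-KO against Ctl, with Benjamini-Hochberg adjustment over 16533 genes and calls at an adjusted p under 0.05. SE is the log2 fold change over the root of F. CPM uses TMM-scaled totals. Levels of different genes are compared in FPKM. The script was tested on simulated data. It called 10.4% of 67 changes of 1.5-fold, 70.1% of 67 of 2-fold and 100.0% of 66 of 4-fold, with 11 false calls. Alternatives were DESeq2 1.42.0, limma 3.58.1 on counts (voom) and on log2(FPKM + 1) and log2(FPKM + 0.1), other scalings, no filter, a replicate block, leaving out each library, and the length and GC correction (loess, span 0.5). Ratios of counts added 0.5 and needed a mean of 10 counts. Named were members called, of extreme level or change, in a paralogue pair or not tested, and up to 4 called genes per companion list. Members and lists were chosen with earlier results of these data known. Intervals and adjusted p reflect 3 libraries a group. Some of the genes named by this rule are not reported here.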

Additional observations from a re-analysis of the deposited data

How the results depend on the processing

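The members' median log2 fold change stayed above 0 in both subunits under every alternative run. The count of members called higher, 28, was 12 with limma on log2(FPKM + 1) without a filter, 13 with the length and GC correction, 24 with the replicate block, and 5 to 23 in the fits without 1 library. The count called lower, 0, was 1 with the replicate block (Rpl23) and 0 to 1 without 1 library. Other scalings, tools and filters called 21 to 37 members higher (DESeq2 37, limma-voom 30). Over all genes, 395 were higher and 413 lower with limma on unfiltered FPKM, 1516 were lower with DESeq2, and 198 to 1102 were higher and 234 to 1447 lower without 1 library. The companion lists, 17 genes higher and 13 lower in all, gave 8 and 4 with limma on unfiltered FPKM, 10 higher with the replicate block, 11 higher with the length and GC correction, and 0 to 18 higher and 3 to 18 lower without 1 library. The large subunit median, 0.45, was 0.31 with limma on unfiltered FPKM, 0.27 with the length and GC correction and 0.36 to 0.47 without 1 library. The small subunit median, 0.49, was 0.30 with the length and GC correction. No result changed its sign; the causes were not tested, beyond the fewer libraries of the fits without 1. Same-numbered libraries deviated together with correlations of 0.018, 0.081 and 0.067, and differently numbered ones with correlations between -0.113 and 0.037. With 3 libraries per group these values cannot decide whether the replicate numbers pair the libraries. At this depth the tested members that averaged under 1 CPM have standard errors of 0.41 to 0.76 on the log2 scale.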

Other observations

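Many ribosomal protein genes carry small nucleolar RNAs in their introns, which guide the modification of ribosomal RNA. Here 30 of the 92 members contained 58 annotated small nucleolar RNAs, and the members lay on 19 chromosomes. Of the 28 called members 6 were such hosts, of the 51 tested and not called 22 were, and of the 13 not tested 2 were. The difference between these counts was not tested.

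Called members had a median transcript length of 580 bases and a median GC content of 53.7%, beside 772 bases and 51.8% in those tested and not called. Relative to the Ctl mean, the median log2 level of the tested members was 0.37, 0.44 and 0.53 in the Li-KO libraries and 0.06, -0.09 and 0.06 in the Ctl libraries.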
